A study of Mus musculus with 24 samples.

Results

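The genes described here are 33 genes of fatty acid oxidation and lipid storage, taken by gene symbol, with earlier results of these data known, out of 45706 genes in the count table. By role they comprise 4 long-chain acyl-CoA synthetases that activate fatty acids (Acsl1, Acsl3, Acsl4, Acsl5), 18 genes of mitochondrial oxidation, 3 genes of peroxisomal oxidation (Acaa1a, Ehhadh, Hsd17b4), 2 fatty acid binding proteins (Fabp4, Fabp5), 5 lipid droplet genes (Plin2, Plin3, Pnpla2, Dgat1, Dgat2) and 1 transcriptional coactivator (Ppargc1b). All 33 passed the filter on low counts in every comparison. RNA was sequenced from C57BL/6J female mice aged 8 to 12 weeks, without further alleles or stimulation. Microglia from the brain (MG), Kupffer cells from the liver (KCs), peritoneal macrophages (PMs) and alveolar macrophages from the lung (AMs) were sorted by FACS and are called ex vivo. For sorting, MG were stained for CD45 and CD11b, KCs also for F4/80 and TIM-4, PMs also for F4/80 and CD115 and AMs also for SiglecF. Their cultured counterparts (MG-LCs, KC-LCs, PM-LCs and AM-LCs) had been kept for 14 days and are called in vitro. Each of the 8 groups held 3 libraries, 24 in all, and values after ± are SDs over these 3. MG-, KC- and PM-LCs grew at 3% oxygen in medium with 4.5 g/L glucose and with 20 ng/mL M-CSF, joined by IL-34 for MG-LCs. AM-LCs grew at atmospheric oxygen without added glucose and with 20 ng/mL GM-CSF, so that tissue of origin, growth factor, oxygen and glucose cannot be told apart where AM-LCs are compared with the other cultures. A culture flask was started from 3 brains, 1 liver, 3 peritoneal lavages or 3 lungs. These cells were plated without sorting, so sorting and culture cannot be told apart where ex vivo is compared with in vitro. Liver and lung were digested with collagenase, brain was homogenized and peritoneal cells were washed out. Tissue and way of isolation therefore cannot be told apart either.

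Fatty acids are first activated to acyl-CoA and then enter mitochondria through the carnitine shuttle, where each round of beta-oxidation shortens the chain and passes electrons to the respiratory chain through the electron transfer flavoprotein. Peroxisomes carry out a separate beta-oxidation that takes very long and branched chains, and fatty acids that are not burned are esterified into triglycerides and kept in lipid droplets coated with perilipins. AMs live in lipid-rich pulmonary surfactant, which they take up and degrade, and they depend on GM-CSF and the nuclear receptor PPARgamma.

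The libraries held 29569486 to 47105111 reads on genes, so that 3 reads corresponded to 0.0661 to 0.115 CPM (counts scaled to library size, normalized by edgeR's TMM method), and this floor covers counting error only. Replicates of a group differed by more than counting error in every group. For pairs of replicates, chi-square per degree of freedom was 12.9 to 20.6 in MG and 272 to 845 in MG-LCs. It was 40.9 to 56.9 in PMs and 157 to 374 in PM-LCs, and 27.2 to 50.4 in AMs and 151 to 165 in AM-LCs. KCs (86.5 to 321) and KC-LCs (144 to 295) overlapped. The summed identity markers marked each sorted population, with 18685 to 19612 CPM of MG markers in MG and 3761 to 3826 CPM of AM markers in AMs. They were lower after culture, at 295 to 2398 CPM in MG-LCs and 172 to 851 CPM in AM-LCs. KC markers had 13881 to 24793 CPM in KCs and 16.9 to 94 CPM in KC-LCs, below MG-LCs (215 to 2233) and PM-LCs (142 to 826). PM markers had 7719 to 7801 CPM in PMs and 74.1 to 94.2 CPM in PM-LCs, above the other cultures. MG markers in KC-LCs, at 311 to 435 CPM, exceeded the 295 CPM of MG-LC replicate 1. KC replicate 1 held fewer KC marker counts (13881 CPM, against 24793 and 24679) and the highest hepatocyte marker sum, 265 CPM against 143 and 158. MG-LC replicate 1 held 30934 CPM of fibroblast and mesothelial markers, against 7.39 and 1012 CPM in the other MG-LCs, PM-LC replicate 2 held 2208 CPM against 22.9 and 365, and AM-LC replicate 3 held 1667 CPM against 17 and 181. Several calls changed without one of these libraries, as given with the results. The 7 adipocyte markers summed to at most 2.22 CPM in any library, and Adipoq, Lep and Cfd had no read in AMs.

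The promoters of 3 genes are shown because of the results that follow: Plin2 and Cpt1a carried large differences between AMs and the other sorted macrophages, and Hadhb shares its start region with Hadha, the gene of its partner subunit. Each stretch is the RefSeq sequence (GRCm38.p6) from 250 bases before to 50 bases after the start that RefSeq annotates, read 5′ to 3′ on the strand of the gene. Positions of genes in the text come from GENCODE, whose gene Cpt1a begins upstream of the RefSeq start, so that this window lies inside the GENCODE gene. Capitals mark the 6 letters of AGGTCA, the half-site recognised by many nuclear receptors, on either strand.
Plin2, chr4:86670010-86670309, minus strand: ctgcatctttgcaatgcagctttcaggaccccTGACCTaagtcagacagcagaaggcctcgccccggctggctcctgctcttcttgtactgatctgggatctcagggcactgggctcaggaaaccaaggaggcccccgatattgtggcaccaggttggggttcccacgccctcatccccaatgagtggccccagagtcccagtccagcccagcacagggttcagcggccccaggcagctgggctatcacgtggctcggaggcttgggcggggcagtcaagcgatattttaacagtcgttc
Cpt1a, chr19:3323051-3323350, plus strand: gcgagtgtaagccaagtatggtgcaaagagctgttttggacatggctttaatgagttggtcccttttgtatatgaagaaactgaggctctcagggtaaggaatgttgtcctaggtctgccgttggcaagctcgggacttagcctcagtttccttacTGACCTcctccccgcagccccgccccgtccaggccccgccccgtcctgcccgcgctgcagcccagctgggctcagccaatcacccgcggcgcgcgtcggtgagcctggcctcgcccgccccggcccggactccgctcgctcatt
Hadhb, chr5:30155003-30155302, plus strand: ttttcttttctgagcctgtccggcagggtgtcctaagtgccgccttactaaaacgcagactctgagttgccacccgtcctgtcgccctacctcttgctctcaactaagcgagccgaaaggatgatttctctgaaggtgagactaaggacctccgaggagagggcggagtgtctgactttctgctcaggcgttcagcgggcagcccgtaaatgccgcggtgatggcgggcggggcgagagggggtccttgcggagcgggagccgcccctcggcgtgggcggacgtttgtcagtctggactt
The half-site began 218 bases before the start of Plin2 and 94 bases before that of Cpt1a, and its letters were not in the window of Hadhb. The windows of Hadhb and Hadha overlapped by 228 bases on opposite strands. Of the 25 members with a window, 5 (Cpt1a, Acadm, Acadvl, Echs1 and Plin2) held the half-site, or 20%, against 16.3% of all 32851 windows. The longer motifs TCAAGGTCA and AGGTCANAGGTCA, searched on both strands and each containing the half-site, were in 0 of the 25 members, against 0.423% and 0.0396% of all windows. These matches are letters in a sequence, and binding was not measured.

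To ask how the genes differ between macrophages taken directly from their tissues, AMs were compared with the mean of sorted MG, KCs and PMs. Of the 33 genes, 28 were higher in AMs and 0 were lower at an adjusted p under 0.05, where 24.7% of the 15732 genes tested were higher and 21.9% were lower (edgeR's quasi-likelihood test, two-sided, Benjamini-Hochberg adjustment, as for all adjusted p given here). No gene was lower at an unadjusted p under 0.05 either, and DESeq2 and limma-voom also called 0 lower, while without KC replicate 1 Acsl4 was lower (log2 fold change -0.65, adjusted p = 0.00964). Their median log2 fold change was 1.30, against -0.08 over all genes tested. In bulk RNA, fewer cells of a type and less RNA per cell cannot be told apart, and the p-values measure the spread between these samples. All 3 AM libraries lay above all 9 other sorted libraries for 22 of the 33 genes, against 13.1% of all genes. Against each of the other 3 populations separately, 20 genes were higher in AMs, against 7.93% of all genes. The genes outside these 20 were Acsl3, Acsl4, Acsl5, Slc25a20, Acadl, Hadh, Echs1, Acaa2, Eci1, Decr1, Fabp4, Fabp5 and Ppargc1b. The sorted AMs had the highest mean CPM of the 4 sorted populations for 24 genes, PMs for 6, KCs for 2 and MG for 1. The same was not counted over all genes.

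**Figure D1:**
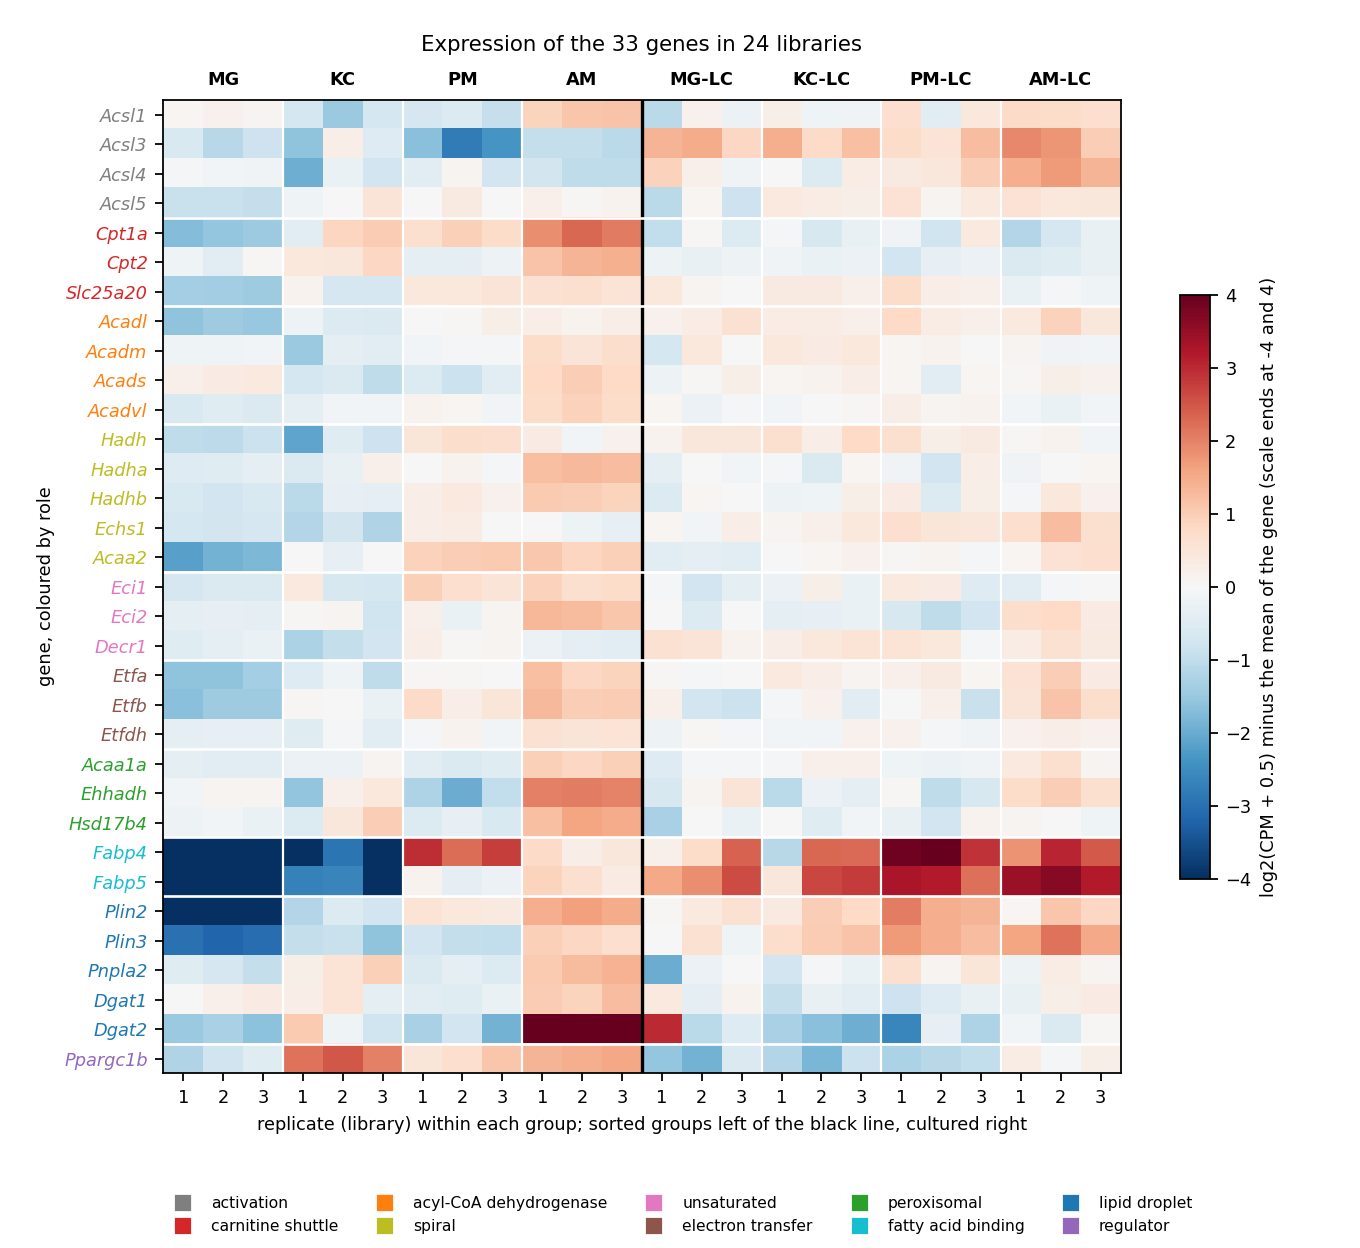
Expression of the 33 genes (rows, ordered by role) in the 24 libraries (columns, by group), as log2(CPM + 0.5) minus the mean of the gene over all libraries, with the colour scale cut at -4 and 4. The 3 AM columns are above the gene mean for most rows, and Fabp4 and Fabp5 are lowest in the 3 MG columns.

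By role, 16 of the 18 mitochondrial genes were higher in sorted AMs, as were all 3 peroxisomal genes, both fatty acid binding genes, all 5 lipid droplet genes, Ppargc1b and 1 of the 4 synthetases. Over all genes tested, 24.7% were higher. These calls are against the mean of MG, KCs and PMs. Fabp4, Fabp5, Ppargc1b and several mitochondrial genes were not higher in AMs than in every other sorted population. The median log2 fold change was 1.15 for the mitochondrial genes, 1.52 for the peroxisomal genes and 2.54 for the lipid droplet genes. Epithelial markers were counted in the same AM libraries, at 162 to 214 CPM in sum over 8 markers, and at no more than 3.34 CPM in any other sorted library. Epcam made up 149 to 192 CPM of this sum, and Sftpc, the defining marker of surfactant-producing epithelium, had 3.46 to 8.25 CPM. The part of these transcripts in the results for AMs was not tested.

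**Figure D2:**
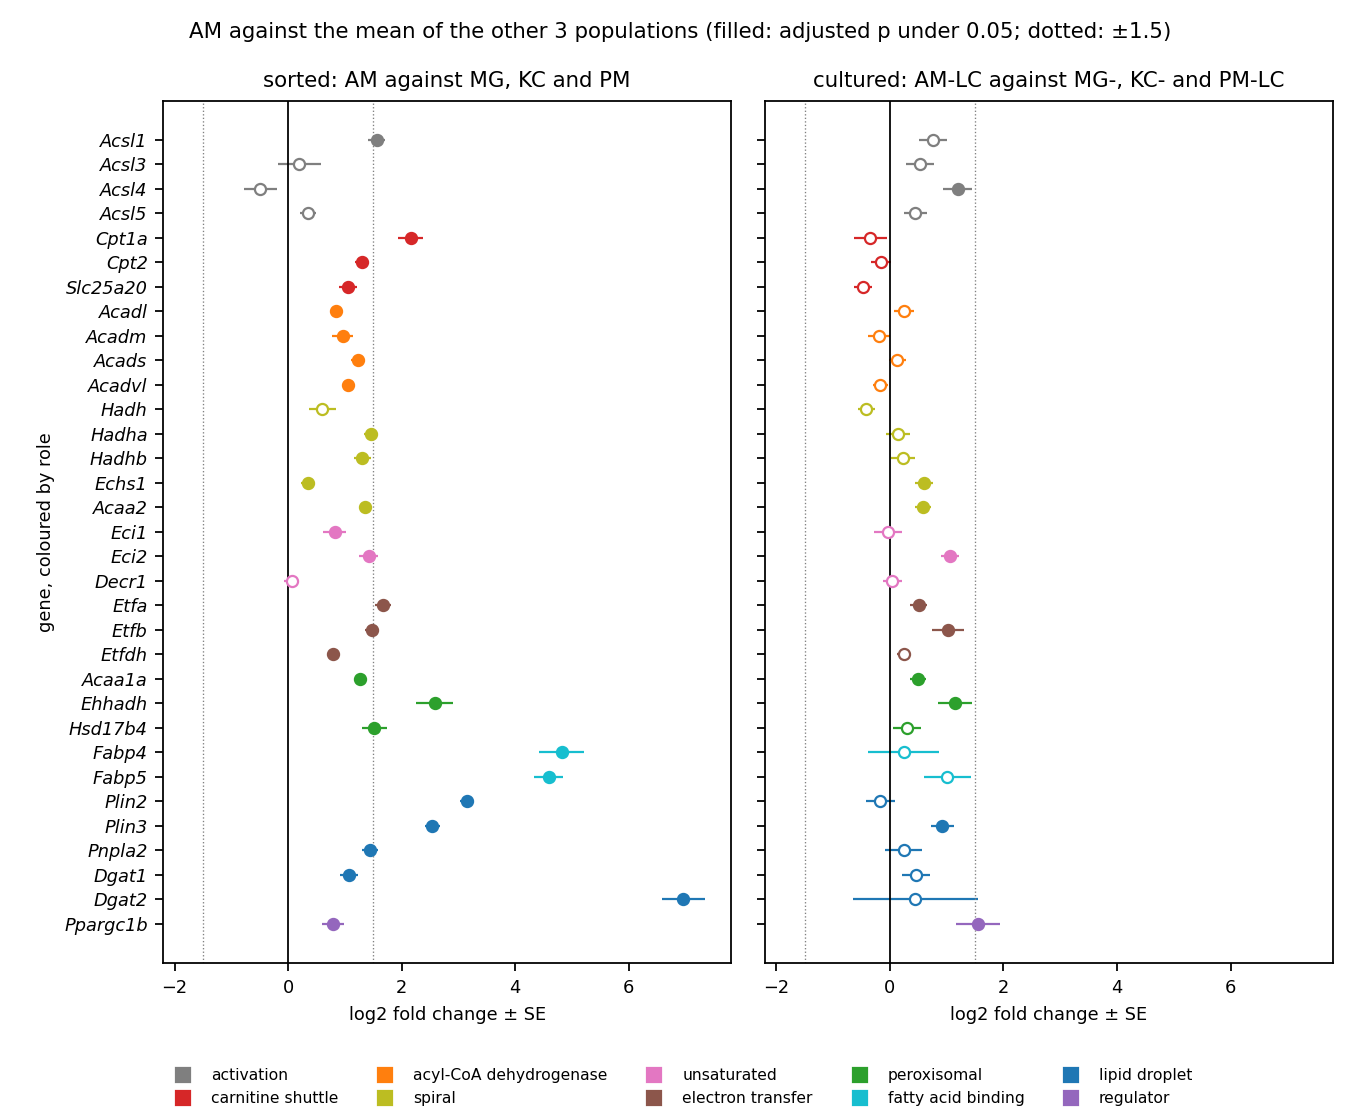
Log2 fold change ± SE of AMs against the mean of the other 3 populations for each of the 33 genes, ex vivo in the left panel and in vitro in the right panel. Filled points have an adjusted p under 0.05 and dotted lines mark -1.5 and 1.5. Ex vivo 28 points are filled, all to the right of 0, and in vitro 10 are filled.

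After culture the populations were closer to one another for most of these genes. AM-LCs were higher than the mean of MG-, KC- and PM-LCs for 10 of the 33 genes and lower for 0, where 8.38% and 4.71% of the 14813 genes tested were called. The 10 genes were Acsl4, Echs1, Acaa2, Eci2, Etfa, Etfb, Acaa1a, Ehhadh, Plin3 and Ppargc1b, and 2 further genes were lower at an unadjusted p under 0.05. DESeq2 called 2 genes lower and limma-voom called 0. Replicates spread more in MG-, PM- and AM-LCs than in their sorted counterparts, and the part of this in the number of calls was not tested. Against each of the other 3 cultures, only Eci2 was higher in AM-LCs, at 68.1, 73.4 and 52.6 CPM, against 20.6 to 41.9 CPM in the other 9 in vitro libraries (1.55% of all genes were higher in all 3 comparisons). Eci2 encodes an enoyl-CoA isomerase that prepares unsaturated chains for oxidation. Among the 10 genes, Eci2 alone was still called under every other normalization, filter and tool tried, with the replicate block and without any single library, but its log2 fold change of 1.06 was below 1.5. The number of genes higher in AM-LCs went from 10 to 4 without AM-LC replicate 1, to 1 without replicate 2 and to 3 without replicate 3, to 5 without KC-LC or PM-LC replicate 1, to 9 without PM-LC replicate 2 and to 6 without KC-LC replicate 2 or 3. The range of the 4 group means, in log2(CPM + 0.5), was wider ex vivo than in vitro for 31 of the 33 genes (93.9%, against 75.4% of 17408 genes). The median range was 1.74 ex vivo and 0.65 in vitro for the 33 genes, and 1.23 and 0.72 for all genes.

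Each sorted population was also compared with its own culture. In AMs, 19 genes were higher ex vivo and 8 were higher in vitro, where 22.9% and 25.9% of the 13196 genes tested were called. The median log2 fold change of the 33 genes in AMs was 0.63, against -0.04 over all genes. In MG, 0 genes were higher ex vivo, also at an unadjusted p under 0.05 and with DESeq2 or limma-voom, and 15 were higher in vitro, where 21.2% and 25.2% of all genes were called. Without MG-LC replicate 1, the library with the fibroblast markers, 21 were higher in vitro, the added genes being Acadm, Hadha, Hadhb, Etfdh, Acaa1a and Pnpla2 (log2 fold changes from -0.77 to -0.39), and without MG replicate 1 or 2 there were 10. In KCs, 4 genes were higher ex vivo and 11 in vitro, where 19.4% and 14.4% of all genes were called, and in PMs 3 and 7, where 12.1% and 16.8% were called. These smaller counts depended on single libraries. In KCs the genes higher ex vivo numbered 1 without any one of the 3 KC-LC libraries, 2 without KC replicate 2 or 3 and 5 without KC replicate 1, and the genes higher in vitro numbered 6 without KC replicate 3 or KC-LC replicate 2 or 3, 7 without KC-LC replicate 1 and 13 without KC replicate 1. Leaving out KC replicate 1 added Cpt1a (log2 fold change 1.30, adjusted p = 0.00672) and Hsd17b4 to the genes higher ex vivo, and Acsl1 (-1.01, adjusted p = 0.0395) and Slc25a20 (-0.96, adjusted p = 0.0131) to those higher in vitro. In PMs the genes higher in vitro numbered 4 without PM replicate 1 or 3, and 8 without PM-LC replicate 2, where Acads was added (-0.68, adjusted p = 0.0461). Markers of other liver and blood cells were higher in KCs than in KC-LCs. Endothelial markers summed to 163 to 319 CPM in KCs and 14.9 to 40.3 CPM in KC-LCs, hepatocyte markers to 143 to 265 CPM and at most 2.22 CPM, and B cell markers to 90.6 to 142 CPM and at most 1.12 CPM. Neutrophil markers ran from 2.2 to 134 CPM in KCs and reached at most 2.79 CPM in KC-LCs. The part of these cells in the KC results was not tested.

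**Figure D3:**
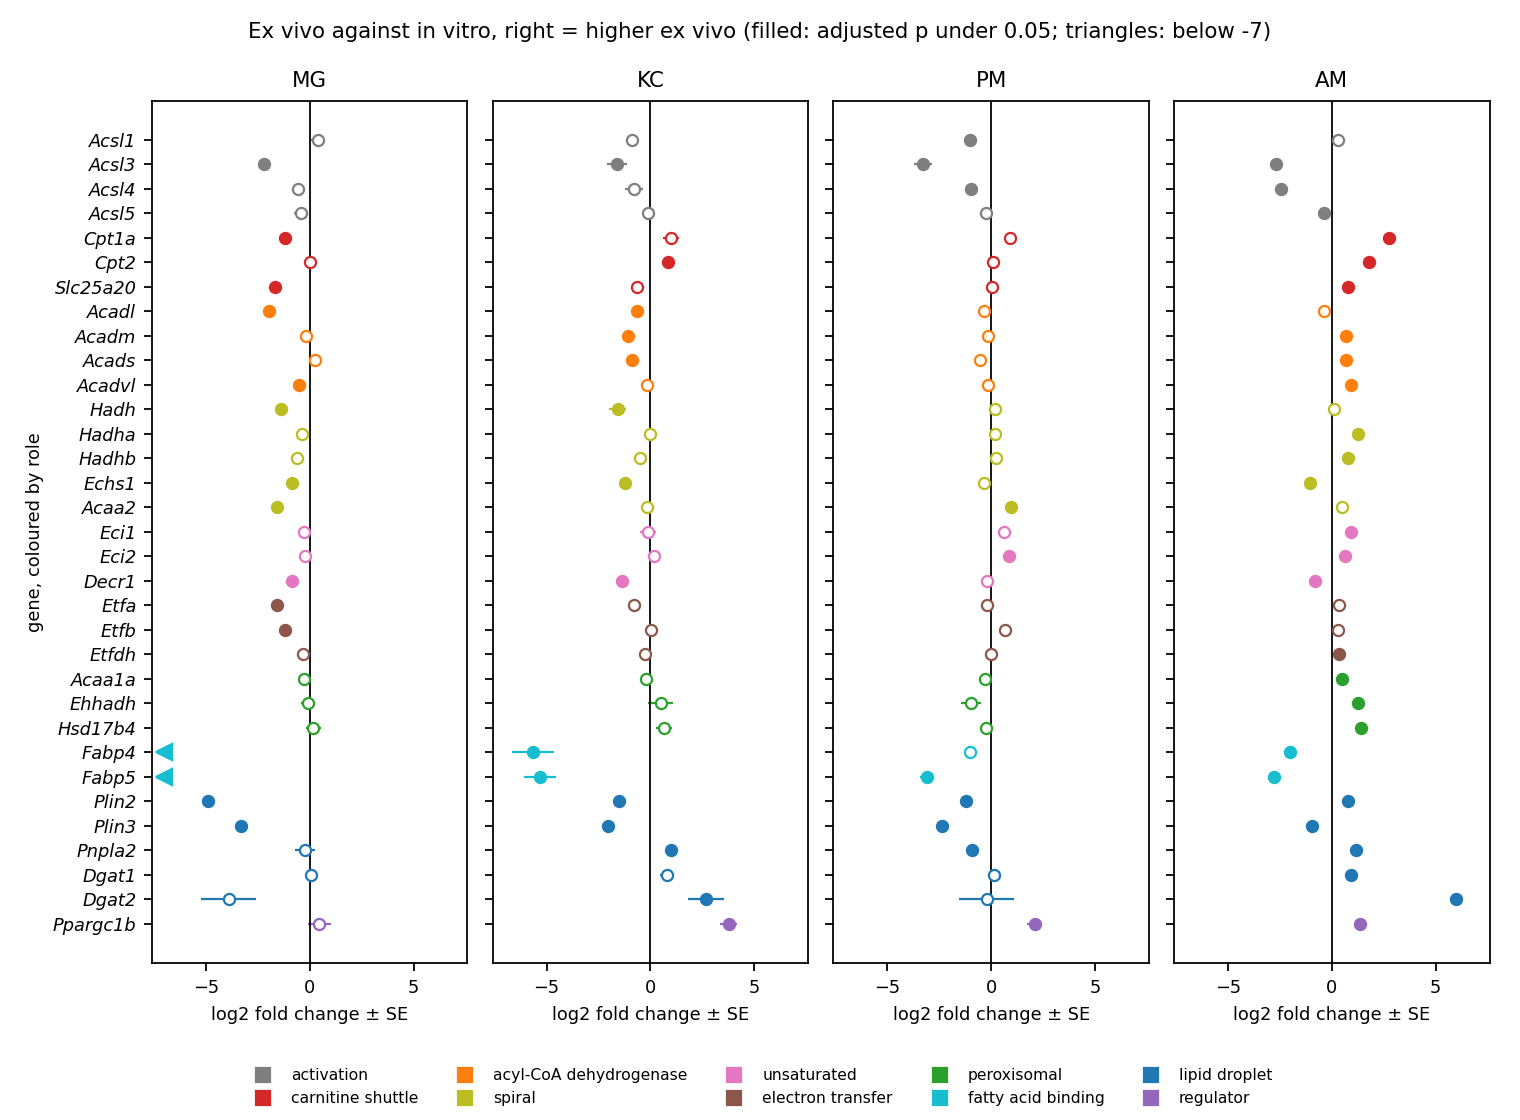
Log2 fold change ± SE of ex vivo against in vitro expression for each of the 33 genes, with 1 panel each for MG, KCs, PMs and AMs. Filled points have an adjusted p under 0.05, and triangles at the left edge stand for Fabp4 and Fabp5 in MG, whose values lie below -7. The panel of AMs has 19 filled points to the right of 0, against 0 in MG, 4 in KCs and 3 in PMs.

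Of the 18 mitochondrial genes, 11 were higher in AMs than in AM-LCs and 2 (Echs1, Decr1) were lower, and all 3 peroxisomal genes and 4 of the 5 lipid droplet genes were higher. Both fatty acid binding genes, 3 of the 4 synthetases and Plin3 were lower in AMs than in AM-LCs. Over all genes tested, 22.9% were higher and 25.9% lower in AMs than in AM-LCs. The difference between populations was tested as an interaction, the ex vivo minus in vitro difference in AMs minus the mean of this difference in MG, KCs and PMs. It was higher in AMs for 20 genes and lower for 1, Acsl4, where 9.45% and 7.68% of 17408 genes were called. The sorted comparison, the comparison of AMs with AM-LCs and the interaction all use the same 3 AM libraries.

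The carnitine shuttle brings long-chain acyl groups into the mitochondrial matrix. Cpt1a, on chromosome 19 from 3322334 to 3385733 (mm10), encodes the rate-controlling carnitine palmitoyltransferase of the outer mitochondrial membrane. It had 473, 632 and 543 CPM in AMs, 200.4, 252 and 216 in PMs, 94.6, 235 and 261 in KCs and 38.2, 43.5 and 46.9 in MG. In vitro Cpt1a had 56.6, 81.1 and 106 CPM in AM-LCs, 117, 73.4 and 168 in PM-LCs, 121, 82.2 and 104 in KC-LCs and 65.2, 132 and 88.9 in MG-LCs. All 3 AM libraries lay above the other 21 libraries, MG was lowest, and the 4 cultures overlapped. Cpt1a was 4.47-fold higher in AMs than in the mean of the other sorted populations (log2 fold change 2.16 ± 0.22 SE, adjusted p = 1.01e-05), and 2.00 on the log2 scale without KC replicate 1. It was 6.66-fold higher in AMs than in AM-LCs (log2 fold change 2.73 ± 0.27 SE, adjusted p = 0.000344), and in MG it was lower than in MG-LCs (log2 fold change -1.20, adjusted p = 0.0153, up to 0.0743 without any one MG library). AM-LCs were not called different from the mean of the other cultures (log2 fold change -0.35 ± 0.29 SE, adjusted p = 0.478). The interaction was 2.53 ± 0.41 SE on the log2 scale (adjusted p = 0.000217). Cpt2, the inner-membrane transferase, and Slc25a20, the carnitine-acylcarnitine carrier, were also higher in AMs than in AM-LCs, by 3.42-fold and 1.7-fold. Cpt2 had 78.4 to 96 CPM in AMs and 23.4 to 28.5 CPM in AM-LCs, and Slc25a20 was at 49.9 ± 2.07 CPM in PMs and 55.4 ± 1.65 CPM in AMs, which the test did not separate (adjusted p = 0.63).

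Acyl-CoA dehydrogenases carry out the first step of each oxidation round, and each of the 4 prefers another chain length. All 4 were higher in sorted AMs than in the mean of the other populations, from 0.84 on the log2 scale for Acadl to 1.23 for Acads. Acads, for short chains, had 78.9, 88.6 and 78.6 CPM in AMs, against 22.1 to 59.2 CPM in the other sorted libraries and 46.5 to 53.3 CPM in AM-LCs. Acadm, Acads and Acadvl were higher in AMs than in AM-LCs by 1.61- to 1.93-fold, while Acadl was not called (log2 fold change -0.39, adjusted p = 0.0665). Acadl was at 121 ± 10.5 CPM in PMs and 131 ± 6.36 CPM in AMs and was lowest in MG, at 38.7 ± 2.56 CPM. Of the length of Acadvl exons, 42.9% overlaps Dvl2 on the opposite strand, and the libraries did not keep strand, so reads of this stretch cannot be assigned to either gene.

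Among the 5 genes of the later steps, Hadha and Hadhb encode both subunits of the mitochondrial trifunctional protein. Hadha had 232, 249 and 240.1 CPM in AMs, 97.5 to 112 in PMs, 68.2 to 116 in KCs and 71.5 to 78.1 in MG, and 92 to 106 in AM-LCs. Hadhb had 52.5, 49.9 and 47.1 CPM in AMs, 28.6 to 33.1 in PMs, 11.6 to 19.8 in KCs and 14.7 to 16.5 in MG, and 23.6 to 34.2 in AM-LCs. For both subunits every AM library was above every other library, and the fold between AMs and the mean of the other sorted populations was 2.75 for Hadha and 2.47 for Hadhb. Echs1, the enoyl-CoA hydratase, went the other way with culture in AMs: it had 71.6 to 90 CPM ex vivo and 139 to 210.0 CPM in vitro (log2 fold change -1.05, adjusted p = 0.00321). Its call in sorted AMs (log2 fold change 0.35, adjusted p = 0.0339) was lost without any one AM or MG library, KC replicate 1 or PM replicate 3, with adjusted p up to 0.297. Acaa2, the thiolase that closes the round, had 160.4 ± 12.5 CPM in AMs, 161 ± 6.09 in PMs, 74.9 ± 9.13 in KCs and 20.8 ± 2.61 in MG, and AMs and PMs were not separated by the test (adjusted p = 0.933). Hadh, the medium- and short-chain dehydrogenase of the third step, was not called in sorted AMs (log2 fold change 0.60, adjusted p = 0.0599), but was called with limma-voom and without KC replicate 1 (0.45, adjusted p = 0.00661) or 2. Decr1, the reductase for polyunsaturated chains, was lower in AMs than in PMs (log2 fold change -0.51, adjusted p = 0.0345) and lower in AMs than in AM-LCs (log2 fold change -0.80, adjusted p = 0.00447).

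Etfa and Etfb are the subunits of the electron transfer flavoprotein, and Etfdh passes its electrons to ubiquinone. Etfa had 202, 156 and 162 CPM in AMs, 91.1, 90.3 and 88 in PMs, 60.7, 77.7 and 43.3 in KCs and 28.2, 28.2 and 33.6 in MG. In vitro Etfa had 132, 176 and 110.1 CPM in AM-LCs, 101, 113 and 92.9 in PM-LCs, 116, 106 and 95.5 in KC-LCs and 90.8, 83.8 and 89.6 in MG-LCs. The sorted groups were fully separated in this order, whereas AM-LCs overlapped with AMs and with 2 of the other cultures. Etfa was 3.19-fold higher in sorted AMs (log2 fold change 1.67 ± 0.14 SE, adjusted p = 2.41e-06) and 3.03-fold lower in MG than in MG-LCs (adjusted p = 0.0011). Between AMs and AM-LCs it was not called (log2 fold change 0.32, adjusted p = 0.189). Etfb was 2.78-fold and Etfdh 1.73-fold higher in sorted AMs, and 53% of the exon length of Etfb is shared with a predicted gene on the same strand.

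The 3 peroxisomal genes were higher in AMs than in each other sorted population and higher in AMs than in AM-LCs, and none of them was called between ex vivo and in vitro in MG, KCs or PMs with all libraries. Hsd17b4 was called higher ex vivo in KCs without KC replicate 1 (0.96 on the log2 scale, adjusted p = 0.0247), and Acaa1a higher in vitro in MG without MG-LC replicate 1 (-0.41, adjusted p = 0.0146). Ehhadh, on chromosome 16 from 21761287 to 21787807, encodes the peroxisomal bifunctional enzyme, which joins hydratase and dehydrogenase activity. It had 41.9, 43.2 and 40.9 CPM in AMs, 3.98, 2.18 and 4.8 in PMs, 3.01, 11.5 and 13.7 in KCs and 9.21, 10.9 and 10.8 in MG. In vitro Ehhadh had 16.9, 20.3 and 15.8 CPM in AM-LCs, 10.4, 4.73 and 6.25 in PM-LCs, 4.46, 8.42 and 7.67 in KC-LCs and 6.23, 10.9 and 14.7 in MG-LCs. The 3 AM libraries were highest of all 24 and the 3 AM-LC libraries came next. Ehhadh was 5.96-fold higher in sorted AMs (log2 fold change 2.58 ± 0.33 SE, adjusted p = 5.62e-05) and 2.39 on the log2 scale without KC replicate 1. It was 2.37-fold higher in AMs than in AM-LCs (log2 fold change 1.24 ± 0.14 SE, adjusted p = 0.000593). AM-LCs were 2.22-fold above the mean of the other cultures (adjusted p = 0.0321), a call lost in 10 of 17 alternatives, among them without any one AM-LC or KC-LC library, MG-LC replicate 2 or PM-LC replicate 3, with adjusted p up to 0.177. The interaction for Ehhadh was not called (log2 1.43 ± 0.51 SE, adjusted p = 0.0624), and it was called with DESeq2 and limma-voom and without KC replicate 3, KC replicate 1 (1.30, adjusted p = 0.0317), MG-LC replicate 1 (1.53, adjusted p = 0.0363) or PM-LC replicate 2 (1.51, adjusted p = 0.0497).

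Hsd17b4, the multifunctional enzyme for very long and branched chains, had 438, 567 and 530.2 CPM in AMs, 130.4, 152 and 124 in PMs, 129.6, 263 and 375 in KCs and 165, 178 and 159.8 in MG. In vitro Hsd17b4 had 206, 194 and 170.1 CPM in AM-LCs, 156, 112 and 208 in PM-LCs, 187, 137 and 177 in KC-LCs and 76.5, 194 and 159 in MG-LCs. AMs stood above all other libraries and the 4 cultures overlapped. The log2 fold change was 1.52 ± 0.22 SE in sorted AMs (adjusted p = 0.000161; 1.36 without KC replicate 1) and 1.42 ± 0.13 SE between AMs and AM-LCs (adjusted p = 0.000276). Its interaction of 1.23 (adjusted p = 0.0295) was lost without AM replicate 2 or 3 or any one AM-LC library, with adjusted p up to 0.0888. Acaa1a, the peroxisomal thiolase, had 213, 195 and 216 CPM in AMs, 82.9, 74.3 and 78.4 in PMs, 93.4, 93.8 and 118 in KCs and 84.5, 81.1 and 82.8 in MG. In vitro Acaa1a had 145, 173 and 119 CPM in AM-LCs, 97.2, 93 and 101 in PM-LCs, 107, 127 and 126 in KC-LCs and 77.7, 105 and 106 in MG-LCs. AMs were again separated from every other library, with a log2 fold change of 1.26 ± 0.09 SE in sorted AMs (adjusted p = 7.26e-07). The difference between AMs and AM-LCs was 0.51 on the log2 scale (adjusted p = 0.0182) and was lost without AM replicate 1 or 3 or AM-LC replicate 1 or 3, with adjusted p up to 0.0679. Acaa1a has a near-identical copy, Acaa1b, and reads that match both copies cannot be assigned to one of them.

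Fatty acid binding proteins carry fatty acids through the cytosol, and Fabp4 and Fabp5 lie on chromosome 3 (10204088 to 10208576 and 10012548 to 10016607). They had the widest range over the 8 groups of all 33 genes. Fabp4 had 704, 421 and 613 CPM in PMs, 153, 109 and 123 in AMs, 3.69, 11.4 and 2.99 in KCs and 0.0661, 0 and 0 in MG. In vitro Fabp4 had 1343, 1466 and 673 CPM in PM-LCs, 316, 740.4 and 496 in AM-LCs, 41.8, 448 and 437 in KC-LCs and between 103 and 464 in MG-LCs. The sorted groups did not overlap and ran from PMs down to MG, where only 3 reads were counted over the group, while KC-LC replicate 1 was well below the other KC-LCs. Fabp4 was 4.56-fold lower in AMs than in PMs (log2 fold change -2.19 ± 0.45 SE, adjusted p = 0.00259), so its higher level against the mean of the other 3 (log2 fold change 4.82, adjusted p = 1.67e-06) rested on MG and KCs. AMs were 4.06-fold lower than AM-LCs (log2 fold change -2.02 ± 0.31 SE, adjusted p = 0.00195), KCs were 50.6-fold lower than KC-LCs (adjusted p = 0.00565), and PMs were not called against PM-LCs (adjusted p = 0.0591). From the pooled reads, the level in MG-LCs was 9550 times that in MG, with a 95% interval of 3267 to 46311 that covers counting error only.

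Fabp5 had 329.5, 273 and 219 CPM in AMs, 195, 133 and 149.6 in PMs, 26.6, 27.7 and 9.38 in KCs and 0.352, 0.379 and 0.573 in MG. In vitro Fabp5 had 1939, 2197 and 1603 CPM in AM-LCs, 1685, 1607 and 805 in PM-LCs, 243, 1127 and 1229 in KC-LCs and 508, 639.9 and 1085 in MG-LCs. Every culture was above its sorted counterpart without overlap, and the sorted groups did not overlap either. AMs and PMs were nevertheless not called different (log2 fold change 0.77 ± 0.34 SE, adjusted p = 0.0972). The log2 fold changes ex vivo against in vitro were -10.77 in MG (adjusted p = 0.000581), -5.32 in KCs (adjusted p = 0.0025), -3.10 in PMs (adjusted p = 0.000643) and -2.81 in AMs (adjusted p = 0.000105). The interactions of Fabp4 (4.58) and Fabp5 (3.59) were thus above 0 although both genes were lower in AMs than in AM-LCs. Their difference between ex vivo and in vitro was smaller in AMs than in the mean of the other populations. For Fabp4 this rested on MG and KCs, because the difference was smaller in PMs than in AMs. Mean CPM of Fabp4 in culture was 200.3% of the sorted mean in PMs, 403% in AMs and 5138% in KCs. For Fabp5 the same percentages were 858, 698 and 4085. Fabp5 has pseudogene copies, and reads that match several copies cannot be assigned to one of them.

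**Figure D4:**
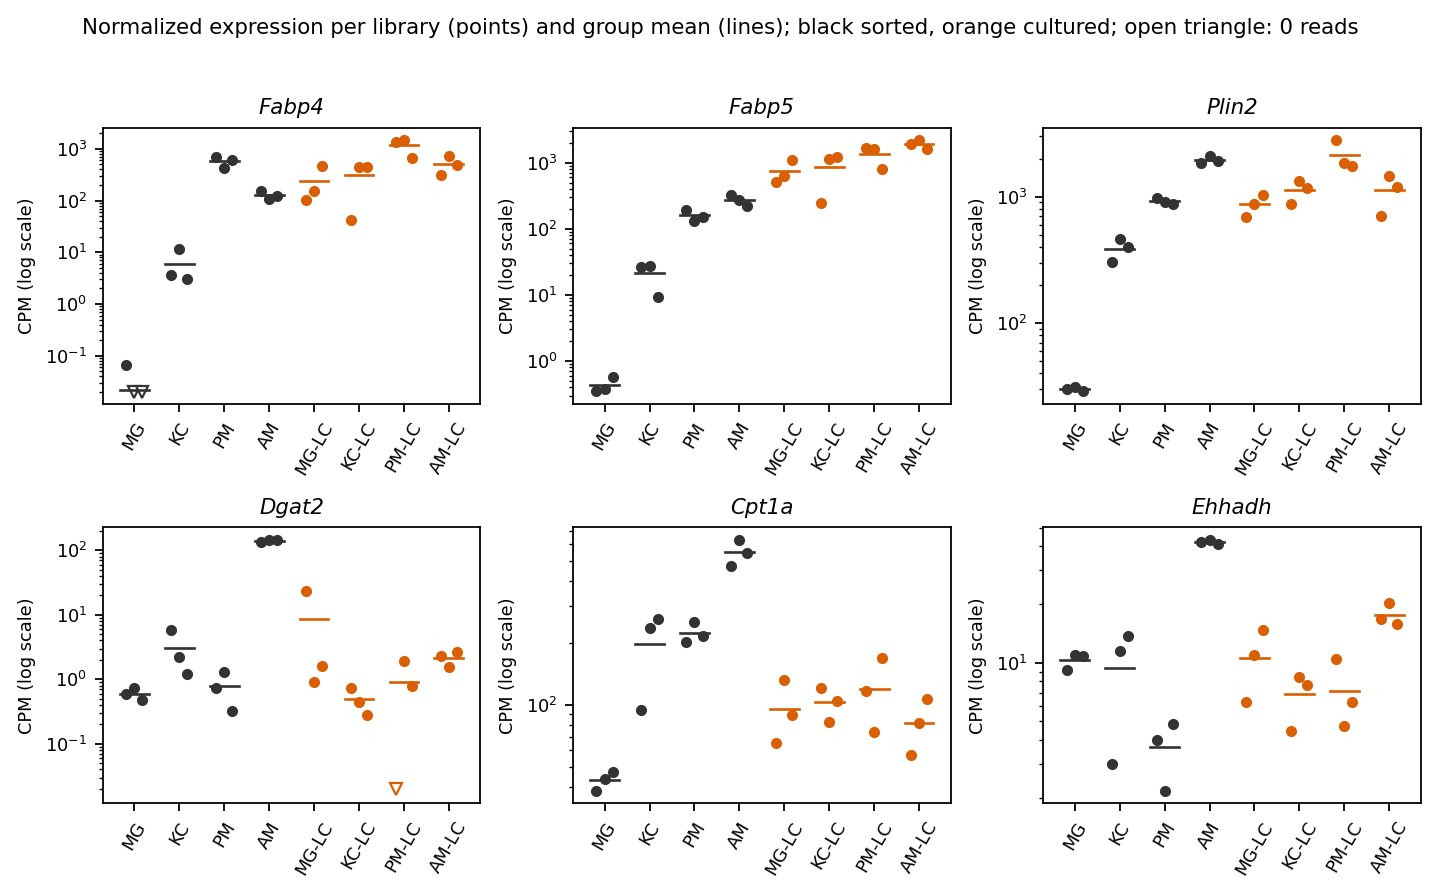
Normalized CPM (log axis) of Fabp4, Fabp5, Plin2, Dgat2, Cpt1a and Ehhadh in each of the 24 libraries, by group, with open triangles at the bottom for libraries without a read. Fabp4 and Fabp5 are near the bottom in MG and high in all cultures, Dgat2 is between 133 and 146 CPM in AMs and at most 23.5 CPM elsewhere, and Cpt1a and Ehhadh are highest in AMs.

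Plin2, on chromosome 4 from 86648386 to 86670060, encodes the perilipin that coats droplets in most cell types and is a common marker of stored lipid. It had 1845, 2106 and 1912 CPM in AMs, 979.6, 906 and 874 in PMs, 302, 464 and 399 in KCs and 29.8, 31 and 29 in MG. In vitro Plin2 had 709, 1461 and 1195 CPM in AM-LCs, 2805, 1836 and 1742 in PM-LCs, 873, 1329 and 1169 in KC-LCs and 693, 881 and 1038 in MG-LCs. The sorted groups were fully separated, in the order AMs, PMs, KCs and MG. Among the cultures PM-LCs were highest, and AM-LCs overlapped with KC- and MG-LCs. Plin2 was 8.91-fold higher in sorted AMs (log2 fold change 3.15 ± 0.12 SE, adjusted p = 3.91e-09), the smallest adjusted p of the 33 genes in this comparison. Plin2 was lower ex vivo than in vitro by 30-fold in MG, 2.83-fold in KCs and 2.31-fold in PMs, and higher ex vivo by 1.73-fold in AMs (log2 fold change 0.79, adjusted p = 0.0408). The call in AMs was lost without any one AM library or AM-LC replicate 3, with adjusted p up to 0.117. The interaction was 3.34 ± 0.31 SE on the log2 scale (adjusted p = 6.11e-07). Plin3, a perilipin that moves from the cytosol to small droplets, had 239.8, 218 and 199 CPM in AMs, 73, 64 and 62.3 in PMs, 64.2, 66.7 and 40.4 in KCs and 15.2, 13.3 and 14.5 in MG. In vitro Plin3 had 367, 554 and 351 CPM in AM-LCs, 407, 336 and 289 in PM-LCs, 201, 248 and 271 in KC-LCs and 122, 188 and 109.8 in MG-LCs. Each culture lay above its sorted counterpart without overlap. Plin3 was 5.8-fold higher in sorted AMs (adjusted p = 3.94e-08) and was lower ex vivo than in vitro in all 4 populations, by 10.1-fold in MG and 1.94-fold in AMs.

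Dgat2 and Dgat1 encode the acyltransferases of the last step of triglyceride synthesis. Dgat2, on chromosome 7 from 99153658 to 99182719, had 133, 146 and 143 CPM in AMs, 0.735, 1.28 and 0.325 in PMs, 5.81, 2.18 and 1.23 in KCs and 0.595, 0.73 and 0.477 in MG. In vitro Dgat2 had 2.29, 1.53 and 2.66 CPM in AM-LCs, 0, 1.93 and 0.785 in PM-LCs, 0.744, 0.449 and 0.277 in KC-LCs and 23.5, 0.921 and 1.63 in MG-LCs. AMs were the only group in which all libraries exceeded 10 CPM, and MG-LC replicate 1 was the only other library above it. Dgat2 was 124-fold higher in sorted AMs (log2 fold change 6.96 ± 0.38 SE, adjusted p = 6.17e-08) and 64.2-fold higher in AMs than in AM-LCs (log2 fold change 6.00 ± 0.25 SE, adjusted p = 3.17e-05). The interaction was 6.50 ± 1.30 SE on the log2 scale (adjusted p = 0.00153) and 5.58 without MG-LC replicate 1. The higher level in KCs than in KC-LCs (log2 fold change 2.68, adjusted p = 0.0483) was lost in 8 of 12 alternatives, among them without KC replicate 1 or 2 or any one KC-LC library, with adjusted p up to 0.153. Dgat1 had 65.5, 60.4 and 76.1 CPM in AMs, 23.6, 23 and 26.8 in PMs, 38.3, 47.5 and 24.8 in KCs and 32.2, 37 and 40.2 in MG. In vitro Dgat1 had 25.8, 37.6 and 40.8 CPM in AM-LCs, 17.9, 22.5 and 26.3 in PM-LCs, 16.2, 25.9 and 23.5 in KC-LCs and 41.9, 24.2 and 35.7 in MG-LCs. AMs were above all other libraries, by 2.11-fold over the mean of the other sorted populations (adjusted p = 0.000201) and by 1.92-fold over AM-LCs (adjusted p = 0.00896).

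Pnpla2 encodes adipose triglyceride lipase, which opens the breakdown of stored triglyceride. It had 293, 338 and 367 CPM in AMs, 93.5, 110.3 and 96.8 in PMs, 167, 205 and 272 in KCs and 99.2, 87.2 and 72.6 in MG. In vitro Pnpla2 had 121, 172 and 152 CPM in AM-LCs, 219.7, 151 and 197 in PM-LCs, 82.2, 137 and 116 in KC-LCs and 35.1, 120.4 and 141 in MG-LCs. AMs were again above every other library, and PMs lay below PM-LCs without overlap. Pnpla2 was 2.71-fold higher in sorted AMs (adjusted p = 7.51e-06) and 2.22-fold higher in AMs than in AM-LCs (adjusted p = 0.00155). In MG it was not called with all libraries and was lower ex vivo without MG-LC replicate 1 (-0.65, adjusted p = 0.0196). In PMs it was lower ex vivo than in vitro (log2 fold change -0.92, adjusted p = 0.011, up to 0.0594 without PM replicate 1 or 3). Its interaction (log2 1.22, adjusted p = 0.037) was lost in 16 of 29 alternatives, among them without any one AM or AM-LC library, with adjusted p up to 0.116.

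The 4 synthetases differed among themselves, and Acsl1 was the one called in sorted AMs. Acsl1 had 103, 119 and 122 CPM in AMs, 34.3, 37.7 and 29.2 in PMs, 33.8, 19.6 and 33.5 in KCs and 58.9, 62 and 59.4 in MG. In vitro Acsl1 had 94.3, 92 and 88.9 CPM in AM-LCs, 87.6, 40.5 and 74.2 in PM-LCs, 65.2, 48.5 and 49.9 in KC-LCs and 25.8, 61.8 and 46.5 in MG-LCs. AMs were above the other sorted groups without overlap, and so were AM-LCs among the cultures. Acsl1 was 2.96-fold higher in sorted AMs (log2 fold change 1.56 ± 0.15 SE, adjusted p = 5.93e-06), and in AM-LCs it was not called (log2 fold change 0.76, adjusted p = 0.0637) but was called with DESeq2 and without MG-LC replicate 1 (0.68, adjusted p = 0.045) or 2. Acsl3, which is found on the endoplasmic reticulum and on forming lipid droplets, had 6.81, 6.88 and 6.29 CPM in AMs, 3.98, 1.55 and 2.3 in PMs, 4.13, 16.8 and 9.41 in KCs and 8.77, 6.06 and 7.59 in MG. In vitro Acsl3 had 53.4, 48 and 27.8 CPM in AM-LCs, 23, 20.1 and 33.2 in PM-LCs, 38.3, 23.5 and 32.6 in KC-LCs and 35.8, 39.1 and 24.6 in MG-LCs. Every in vitro library was above every ex vivo library. Acsl3 was lower ex vivo than in vitro in all 4 populations, by 4.59-fold in MG, 3.05-fold in KCs, 9.77-fold in PMs and 6.45-fold in AMs, and the call in KCs (adjusted p = 0.039) was lost without KC replicate 3 or any one KC-LC library, with adjusted p up to 0.113. Acsl4, which prefers arachidonic acid, had 35.5 to 42.9 CPM in AMs and 183 to 234 CPM in AM-LCs (log2 fold change -2.44 ± 0.14 SE, adjusted p = 5.87e-05). It was the only one of the 33 genes whose interaction was called below 0 (log2 -1.68, adjusted p = 0.00654).

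Ppargc1b encodes PGC-1beta, a coactivator of genes of mitochondrial oxidation. It had 15.5, 16.8 and 17.7 CPM in AMs, 8.29, 9.38 and 13 in PMs, 27.5, 34.6 and 24.6 in KCs and 2.2, 3.08 and 3.96 in MG. In vitro Ppargc1b had 7.22, 5.46 and 6.85 CPM in AM-LCs, 2.13, 2.4 and 2.68 in PM-LCs, 2.26, 1.27 and 2.95 in KC-LCs and 1.64, 1.19 and 3.66 in MG-LCs. KCs were highest and the 4 sorted groups did not overlap, and AM-LCs were above the other cultures. Ppargc1b was lower in AMs than in KCs (log2 fold change -0.80 ± 0.25 SE, adjusted p = 0.0238). It was higher ex vivo than in vitro by 13.7-fold in KCs (adjusted p = 0.00105), 4.25-fold in PMs (adjusted p = 0.00494) and 2.54-fold in AMs (adjusted p = 0.0022), and it was not called in MG. AM-LCs were 2.93-fold above the mean of the other cultures (adjusted p = 0.0253), a call lost without any one AM-LC library or PM-LC replicate 1, with adjusted p up to 0.102.

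Levels of different genes were compared within a group as TPM (reads divided by the length of the main coding transcript and scaled to one total per library). In AMs Plin2 was the highest of the 33 genes, at 2280 ± 237 TPM, and Acsl3 was the lowest, at 3.71 TPM. Next to Plin2 came Fabp5 at 607 ± 101 TPM and Etfb at 595 ± 42.2 TPM, whose libraries overlapped. In AM-LCs Fabp5 was the highest, at 2951 ± 239 TPM, and Dgat2 was the lowest, at 1.49 TPM. Next to Fabp5 came Plin2 at 899 ± 258 TPM and Fabp4 at 867 ± 281 TPM, whose libraries overlapped. In MG the peroxisomal gene Hsd17b4 was the highest, at 184 TPM. Summed by role, the lipid droplet genes held 3035 ± 293 TPM in AMs and the fatty acid binding genes 921 ± 126 TPM. In AM-LCs this order was the reverse, with 1230 TPM for the lipid droplet genes and 3819 TPM for the fatty acid binding genes. Among the sorted groups, the fatty acid binding sum exceeded the lipid droplet sum in PMs, at 1382 against 983 TPM, and not in KCs (69.2 against 891 TPM) or MG (1.37 against 257 TPM).

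A further 58 genes of the same pathways that are not among the 33 were counted in the same comparisons. In sorted AMs, 31 of the 54 tested were higher and 3 lower than in the mean of the other populations, where 24.7% and 21.9% of all genes were called. Between AMs and AM-LCs, 18 of 51 were higher ex vivo and 13 lower, against 22.9% and 25.9% of all genes. In MG 3 were higher ex vivo and 15 lower of 47 tested (21.2% and 25.2% of all genes), in KCs 6 and 12 of 48 (19.4% and 14.4%), and in PMs 5 and 12 of 50 (12.1% and 16.8%). AM-LCs were higher than the other cultures for 8 of 51 and lower for 1, against 8.38% and 4.71%, and the interaction was higher in AMs for 14 of 55 and lower for 2, against 9.45% and 7.68%.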

How the data were processed

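RNA sequencing of 12 sorted (ex vivo) and 12 cultured (in vitro) macrophage libraries, 3 in each of 8 groups, was analysed. The authors made libraries with the SMARTer Ultra Low Input and Nextera XT kits, which do not keep strand, sequenced single reads, trimmed them with Trimmomatic (0.36 in the submitters' processing notes), aligned them with STAR (2.5.2b in these notes) to mm10 and deposited counts of reads per gene, not normalized. The notes name hg19, whereas the identifiers are of mouse genes. Symbols were found for 45143 of 45706 identifiers.

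The counts as deposited were tested with edgeR 4.0.16 in R 4.3.3 (TMM normalization, filterByExpr with a minimum count of 10, quasi-likelihood test, two-sided, Benjamini-Hochberg adjustment over all genes tested). A gene was called at an adjusted p under 0.05. A model of the 6 libraries of a population gave its ex vivo minus in vitro difference, models of the 12 sorted or the 12 cultured libraries compared AMs or AM-LCs with the mean of the other groups on the log2 scale, and a model of all 24 gave the interaction. CPM were normalized over all libraries together. Fold changes are from the fits. Ratios against a group with 1 to 3 reads have an exact 95% interval. The procedures were tested on simulated data.

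Fatty acid binding, peroxisomal, lipid droplet and regulator genes, and genes that also passed an absolute log2 fold change of 1.5 in sorted AMs or in at least 2 populations, are given with every library. Of the others, the extremes of their role are named, and other genes of the pathway are named only where past both thresholds. A result for one of these is not reported here. The members and lists were chosen with earlier results of these data known. Numbered replicates did not deviate together between ex vivo and in vitro (r from -0.104 to 0.0558 over genes), so the fits have no replicate block. Alternatives were DESeq2 1.42.0, limma-voom (limma 3.58.1), RLE size factors, no filter, the block, all 24 libraries in 1 model, the 1.5 threshold, calls against each of the 3 other groups, and leaving out each library. Promoters came from RefSeq tables, in which 8 of the 33 genes were not matched.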

Additional observations from a re-analysis of the deposited data

Results flagged for a closer look

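The difference between ex vivo and in vitro expression in AMs differed from the mean of this difference in MG, KCs and PMs for 21 of the 33 genes (interaction term, edgeR's quasi-likelihood test, adjusted p under 0.05), with 20 above 0 and 1 below, against 9.45% and 7.68% of the 17408 genes tested. Each value is a difference of log2 fold changes, and the AM libraries in it are also those of the comparison of sorted cells.

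In the carnitine shuttle and mitochondrial oxidation, the values were 2.53 for Cpt1a, 1.47 for Cpt2, 1.53 for Slc25a20, 1.16 for Acadm, 1.11 for Acads, 1.23 for Acadvl, 1.03 for Hadh, 1.33 for Hadha, 1.08 for Hadhb, 0.77 for Acaa2, 1.17 for Etfa and 0.55 for Etfdh. The peroxisomal genes Acaa1a and Hsd17b4 had 0.77 and 1.23. The lipid droplet genes had 3.34 for Plin2, 1.62 for Plin3, 1.22 for Pnpla2 and 6.50 for Dgat2. For Plin2 the difference was above 0 in AMs (0.79) and below 0 in MG (-4.90) and PMs (-1.21), and also in KCs. For Plin3 the difference in AMs was itself below 0 (-0.96). Fabp4 and Fabp5 had 4.58 and 3.59, with the difference in AMs itself below 0 (-2.02 and -2.81). For Fabp4 the difference was smaller in PMs than in AMs, with mean CPM in culture at 200.3% and 403% of the sorted mean. Acsl4 had -1.68, with the difference below 0 in AMs (-2.44) and also in PMs (-0.95). Its mean CPM was higher in culture in MG and KCs too, at 141% and 176% of the sorted mean. Between AMs and AM-LCs, Etfa was not called and the libraries of Hadh overlapped. For Hadh, mean CPM in culture as a percentage of the sorted mean was 92.4 in AMs, 255 in MG, 302 in KCs and 86.9 in PMs. In the same order, these percentages were 70.4, 291, 115 and 51.6 for Acaa2, and 80.2, 294, 175 and 114 for Etfa.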

How the results depend on the processing

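No result reversed under any alternative tried. Single genes kept their side of the threshold in 3385 fits, lost a call in 207 and gained one in 71. With the threshold on the adjusted p and the contrast kept, and under every other alternative, 26 of 28 calls in sorted AMs, 23 of 27 between AMs and AM-LCs, 16 of 21 interactions, 10 of 15 for MG, 7 of 15 for KCs, 6 of 10 for PMs and 1 of 10 for AM-LCs remained. When an absolute log2 fold change above 1.5 was also required, the genes higher in vitro numbered 4 for AMs, 9 for MG, 5 for KCs and 3 for PMs, those higher ex vivo 2 for KCs, 1 for PMs and 3 for AMs, those higher in AMs among sorted cells 10, those higher in AM-LCs 1 and those with a higher interaction 7. Without the filter on low counts, 1 gene was higher ex vivo in KCs and 4 were higher in AM-LCs. DESeq2 called 2 genes lower in AM-LCs, and calls against each of the 3 other cultures left 1 gene higher in AM-LCs. With the replicate number as a block, 2 genes were higher ex vivo in KCs and 4 higher in vitro in PMs. The numbers do not pair the libraries, not every library correlated best with its own number, and the block moved no other count of calls by over 1.5 times. The cause of these changes was not tested. For the counts under these alternatives, and for those with a library left out, shares over all genes are not given beside them. The counts show only how far the calls depend on the processing.

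With any one library left out, MG had 0 to 0 genes higher ex vivo and 10 to 21 higher in vitro. The same counts were 1 to 5 and 6 to 13 for KCs, 2 to 4 and 4 to 8 for PMs, and 16 to 21 and 7 to 8 for AMs. It gave 26 to 29 genes higher and 0 to 1 lower in sorted AMs (1 without KC replicate 1), 1 to 11 higher and 0 to 0 lower in AM-LCs, and 15 to 23 higher and 1 to 1 lower interactions. RLE size factors moved the median of all genes by at most 0.09 on the log2 scale. At these depths, levels under 0.0661 to 0.115 CPM could not be told from 0, which touches Fabp4 in MG and 1 PM-LC library for Dgat2.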

Other observations

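Several genes of lipid storage outside the 33 also separated AMs from the other groups. Cidec, which fuses lipid droplets, had 569, 564 and 564 CPM in AMs and 0.751, 5.08 and 0.789 CPM in AM-LCs, at most 3.62 CPM in KCs and 0 reads in all libraries of MG, PMs, MG-LCs, KC-LCs and PM-LCs. Fabp1, a fatty acid binding protein best known from liver and gut, had 468, 521 and 538 CPM in AMs and 0.457, 0.916 and 1.54 CPM in AM-LCs. The AM libraries of both genes lay far above every other library. Between AMs and AM-LCs, Cidec was 261-fold (adjusted p = 0.000335) and Fabp1 518-fold higher ex vivo (adjusted p = 4.7e-05, edgeR's quasi-likelihood test). Fabp1 also had 16.9, 8.25 and 3.91 CPM in KCs, and KC replicate 1, the library with the most Fabp1 among these, also had the highest hepatocyte marker sum, 265 CPM against 143 and 158. The part of hepatocyte transcripts in Fabp1 in KCs was not tested.

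Pparg, the nuclear receptor of AM lipid metabolism, had 339.9, 333 and 374 CPM in AMs, 22.6 to 34.7 CPM in KCs, at most 1.66 CPM in PMs and 0 reads in MG. In AM-LCs it had 67.8, 116 and 102 CPM, which overlapped with PM-LCs (47.5 to 104 CPM), and AMs were 3.63-fold above AM-LCs (adjusted p = 0.000566). Lpin1, a phosphatidate phosphatase of triglyceride synthesis, had 385, 448 and 476 CPM in AMs and 37 to 54.2 CPM in AM-LCs, a 9.11-fold difference (adjusted p = 4.72e-05). Cd36, a fatty acid uptake receptor, went the other way, with 445, 469 and 393 CPM in AMs and 1606, 3500 and 1983 CPM in AM-LCs (5.44-fold lower ex vivo, adjusted p = 0.000693). Mgll, which releases the last fatty acid from stored glycerides, stayed apart in culture: AM-LCs had 374, 627 and 451 CPM, against 0.288 to 94.9 CPM in the other cultures (25.1-fold, adjusted p = 0.00315). Lipe, hormone-sensitive lipase, was 4-fold lower in AMs than in the mean of the other sorted populations (adjusted p = 2.02e-06), with 7.21 to 10.2 CPM in AMs and 20.3 to 49.5 CPM in the other sorted libraries.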
